A study of Mus musculus with 46 samples.

Results

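The esters of inulin were set directly against plain inulin in the cecum of mice on a high fat diet. The comparison took the 5 cecum arrays of mice fed HFD + inul PB and the 6 cecum arrays of mice fed HFD + inulin, chosen by their labels, 11 of 46 arrays in the series. All mice were male C57Bl/6, were 12 weeks old when the diets began, ate them for 8 weeks and were 20 weeks old at sampling. The HFD (high fat diet) supplied 45% of its energy as fat, and both fiber diets were this diet with 5% corn starch and 5% cellulose by weight taken out. In HFD + inulin plain inulin took that place, and in HFD + inul PB inulin propionate ester and inulin butyrate ester did, at 5% each. Because both esters were fed together, propionate and butyrate cannot be told apart here. Cecum arrays of the HFD without added fiber (6 arrays) and of a low fat diet (LFD, 5 arrays, 10% of energy as fat) are quoted beside some results. The tissue was a 20 mg piece of whole cecum, and in such bulk RNA fewer cells of a type and less RNA per cell cannot be told apart.

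Inulin is a fructose polymer that the host does not digest and that cecal bacteria ferment to short chain fatty acids (SCFA), mainly acetate, propionate and butyrate. Acids bound to inulin as esters are released where bacteria split the bond, so that they reach the cecum and colon. There butyrate is a fuel of the epithelium and an inhibitor of histone deacetylases, and both acids are ligands of the G protein coupled receptors Ffar2 and Ffar3. The question of the comparison was whether the bound acids change cecal gene expression beyond what plain inulin does.

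One-colour Agilent arrays gave a brightness for each probe, a 60-base oligonucleotide, and levels are given as normalised log2 signal, on which 1 unit is a 2-fold difference. Probes bind with different strength, so levels are compared only within a probe. Between 48.4% and 55.3% of spots were well above background on the HFD + inulin arrays and between 49.4% and 55.0% on the HFD + inul PB arrays. The methods describe the arrays as run on separate mice, but the labels do not tie an array to a mouse, so P-values are those of the spread between these arrays. The arrays lie on 3 slides, and each slide holds both diets, so differences could also be taken within a slide. Within a slide the HFD + inulin arrays always lie in odd columns and the HFD + inul PB arrays in even columns, so column position and diet cannot be told apart. The tissue label was checked on 14 genes: the epithelial genes Epcam, Cdh1, Krt8, Krt20, Vil1, Cdx1 and Cdx2 were well above background on every array, and Alb, the main liver plasma protein, on none of the arrays of either diet. Hoxb13, a gene of the distal colon, was not well above background on any of them. Of the 14 genes, 12 were well above background on every array of both diets. Alb and Hoxb13 were the 2 that were well above background on none. Apob and Ttr, which the check had also set as liver genes, were thus among the 12. Of the liver genes of the check only Alb was absent.

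Differences between the fiber diets were few. The criteria of the study, more than 1.5-fold with a P under 0.01 before adjustment, were met by 447 of 55681 probes (0.803%), 260 higher on HFD + inul PB (0.467%) and 187 lower (0.336%). An unadjusted P under 0.01 was met by 857 probes, where 1% of those tested would be 557. At a Benjamini-Hochberg adjusted P under 0.05 in limma, 12 probes (0.0216%) differed, 8 of them higher. Most differences were small: among probes whose spots stood well above background throughout at least 1 diet, the median size was 0.12 on the log2 scale and 79.0% were under 0.25. Of the 447 probes, 225 were not bright on all arrays of either diet, and their differences are those of dim spots. The levels of 402 probes (0.722%) did not overlap between the diets. Below, "rose" and "fell" are used for genes past the 1.5-fold criteria on HFD + inul PB relative to HFD + inulin, and all differences are HFD + inul PB minus HFD + inulin.

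The ribonucleases of the angiogenin group, 3 genes, rose together. Ang4 is an antimicrobial ribonuclease that goblet and Paneth cells secrete into the lumen, Ang is angiogenin, a ribonuclease that promotes vessel growth, and Ang2 is a mouse paralog of both. Ang4 rose 8.50-fold, Ang2 3.63-fold and Ang 2.14-fold, and each passed after adjustment. On the HFD + inulin arrays Ang4 lay between 9.86 and 10.98 with a median of 10.35, and on the HFD + inul PB arrays it was 13.24, 14.06, 13.13, 13.30 and 13.52. Every ester array was thus above every inulin array. The difference was 3.09 (95% interval 2.40 to 3.78, limma adjusted P = 1.53e-04), and it was 3.23, 2.78 and 3.09 within the 3 slides. An exact permutation test, two-sided, gave P = 0.00216, the smallest that 6 against 5 arrays allow. Any gene without overlap gets this value, and lack of overlap was part of the rule for the largest rises. It thus adds no support to the limma result.

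Ang2 lay between 8.88 and 9.59 with a median of 9.23 on HFD + inulin, and was 10.82, 11.59, 10.92, 11.05 and 11.01 on HFD + inul PB. Ang had its lowest value at 10.44, its median at 10.73 and its highest at 11 on HFD + inulin, and was 11.48, 12.20, 11.62, 11.75 and 11.90 on HFD + inul PB. Neither gene overlapped between the diets, and for each of the 3 genes replicate 2 was the highest of the ester arrays. The difference was 1.86 (1.48 to 2.24, limma adjusted P = 8.92e-05) for Ang2 and 1.10 (0.80 to 1.39, limma adjusted P = 0.00151) for Ang.

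Without added fiber the 3 genes lay near their plain inulin level. Ang4 averaged 10.13 ± 0.80 (SD, n = 6) on HFD and 10.37 ± 0.49 (SD, n = 5) on LFD, close to 10.36 ± 0.45 (SD, n = 6) on HFD + inulin, against 13.45 ± 0.37 (SD, n = 5) on HFD + inul PB. Against the same HFD arrays, Ang4 differed by 0.24 on HFD + inulin (limma adjusted P = 0.763), and the ester diet by 3.32 (limma adjusted P = 2.62e-05). For Ang2 the corresponding differences were 0.29 and 2.15, and for Ang 0.30 and 1.40.

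**Figure D1:**
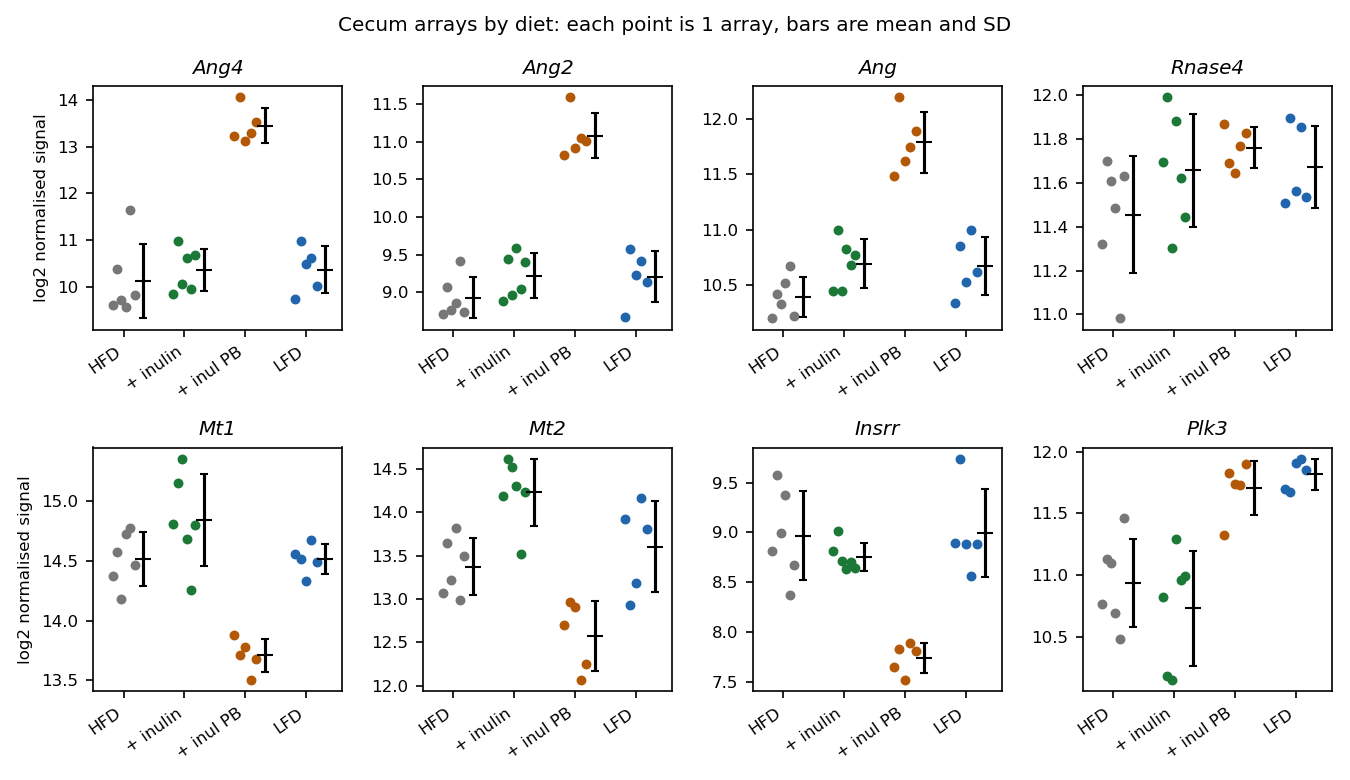
Normalised log2 signal of 8 genes (panels) on each cecum array (points), by diet, with the mean and SD of each diet. The HFD + inul PB points of Ang4, Ang2 and Ang all lie above the HFD + inulin points, those of Mt1, Mt2 and Insrr all lie below, and Rnase4 overlaps.

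The rest of the ribonuclease A family, a list drawn up after these values were seen, did not move with them. Of 16 members measured, the same 3 rose and none fell, against 0.541% of all 20887 genes that rose and 0.455% that fell. Rnase4, which lies beside Ang, differed by 0.10 (-0.18 to 0.38), 11.66 ± 0.26 (SD, n = 6) on HFD + inulin against 11.76 ± 0.09 (SD, n = 5). The largest difference among the other members was that of Rnase1, at 0.71 (-0.17 to 1.60, limma adjusted P = 0.838). Ang5 and Ang6 have no probe matched by name. The angiogenins of the mouse are close in sequence, and the files hold no probe sequences, so how far the probes bind each other's transcripts was not tested. A further transcript, listed as NM_001123394 and matched to no symbol, rose on both of its probes, by 2.24 and 3.02 (limma adjusted P = 8.92e-05 and 1.01e-04).

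The start regions of Ang and Ang4 are shown because Ang and Rnase4 share one and differ in their response, whereas Ang and Ang4 have separate ones and both rose. The sequences are the 250 bases before the start of transcription in RefSeq on GRCm38.p6, 5′ to 3′, with matches to TATANA on either strand in capitals. Ang lies at chr14:51090827-51091076 on the plus strand and Ang4 at chr14:51773591-51773840 on the minus strand. Rnase4 has 2 starts in that table, 1 of them with the same window as Ang, and Ang2 is not in it.
Ang: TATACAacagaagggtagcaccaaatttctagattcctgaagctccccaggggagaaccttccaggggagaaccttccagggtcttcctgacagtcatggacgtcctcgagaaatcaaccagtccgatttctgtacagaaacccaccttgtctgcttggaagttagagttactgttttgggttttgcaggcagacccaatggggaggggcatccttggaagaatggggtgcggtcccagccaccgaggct
Ang4: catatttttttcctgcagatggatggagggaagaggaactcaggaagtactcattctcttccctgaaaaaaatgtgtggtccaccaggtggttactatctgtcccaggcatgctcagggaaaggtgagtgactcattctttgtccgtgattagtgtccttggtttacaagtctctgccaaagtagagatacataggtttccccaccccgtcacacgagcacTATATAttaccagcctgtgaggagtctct
The Ang4 match begins 29 bases before the start and that of Ang 250 bases before it. Of 32817 RefSeq windows of the same length, 22.6% hold the motif, and a match describes the letters only.

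The metallothioneins Mt1 and Mt2, small proteins that bind zinc and copper and rise with the free metal in the cell, fell. Mt1 lay between 14.25 and 15.36 with a median of 14.81 on HFD + inulin, and was 13.87, 13.71, 13.78, 13.50 and 13.67 on HFD + inul PB. Mt2 lay between 13.52 and 14.61 with a median of 14.27 on HFD + inulin, and was 12.70, 12.97, 12.91, 12.07 and 12.25 on HFD + inul PB. No array of one diet reached the range of the other for either gene. Mt1 fell by 1.14 on the log2 scale (95% interval -1.45 to -0.82, 2.20-fold, limma adjusted P = 0.00195) and Mt2 by 1.65 (-2.16 to -1.15, 3.14-fold, limma adjusted P = 0.00724). Within the 3 slides Mt1 differed by -1.19, -1.24 and -0.94, and Mt2 by -1.57, -1.50 and -1.72.

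The levels without fiber lay between those of the fiber diets. Mt2 averaged 13.37 on HFD and 13.60 on LFD, against 14.23 ± 0.39 (SD, n = 6) on HFD + inulin and 12.58 ± 0.40 (SD, n = 5) on HFD + inul PB. Against the shared HFD arrays Mt2 differed by 0.86 on HFD + inulin (limma adjusted P = 0.0638), and the ester diet by -0.79 (limma adjusted P = 0.0519), and Mt1 by 0.33 (limma adjusted P = 0.292) and -0.81 (limma adjusted P = 0.00327).

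Other genes of metal handling, again a list drawn up after the values were seen, did not fall with them: of 14 measured, Mt1 and Mt2 fell and none rose. Slc39a4, the zinc importer of the gut epithelium, was 0.53 higher (0.23 to 0.82), which is under 1.5-fold, with 16.92 ± 0.29 (SD, n = 6) on HFD + inulin against 17.45 ± 0.06 (SD, n = 5) and overlapping ranges (limma adjusted P = 0.436). Mt3, the brain metallothionein, differed by -0.10 (-0.54 to 0.34), Mt4 by -0.53 (-1.25 to 0.19), Mtf1, the transcription factor that senses zinc, by 0.26 (-0.06 to 0.57), and Slc30a1, a zinc exporter, by 0.19 (-0.05 to 0.42).

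The windows before Mt1 and Mt2 are shown because both genes fell and because metallothioneins are known for metal response elements near their start. The core of the element was searched as TGCACNC or TGCGCNC on both strands, and matches are in capitals. Sequences are from RefSeq on GRCm38.p6, 5′ to 3′, Mt1 at chr8:94178839-94179088 and Mt2 at chr8:94172368-94172617, both on the plus strand.
Mt1: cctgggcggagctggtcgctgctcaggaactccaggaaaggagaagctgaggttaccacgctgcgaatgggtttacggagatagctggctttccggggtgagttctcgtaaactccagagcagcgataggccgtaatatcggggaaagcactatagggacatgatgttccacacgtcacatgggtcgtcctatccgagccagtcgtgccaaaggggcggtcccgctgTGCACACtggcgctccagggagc
Mt2: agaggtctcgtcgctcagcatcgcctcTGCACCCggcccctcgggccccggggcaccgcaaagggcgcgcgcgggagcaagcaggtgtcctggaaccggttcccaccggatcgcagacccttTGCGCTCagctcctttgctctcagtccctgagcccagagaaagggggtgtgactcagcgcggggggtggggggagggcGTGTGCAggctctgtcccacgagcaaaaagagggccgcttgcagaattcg
The Mt1 window holds 1 match, 23 bases before the start. That of Mt2 holds 3, at 223, 128 and 50 bases before it. The counts depend on the start taken, and bases outside these windows were not searched. A match is in 21.4% of the 32817 windows, and 3 or more are in 1.26%.

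The remaining results past adjustment were Fhit, a region of long non-coding RNA and a transcript with no symbol. Fhit, a hydrolase of diadenosine triphosphate encoded at a fragile site, fell from 7.27 ± 0.16 (SD, n = 6) to 6.61 ± 0.20 (SD, n = 5), by 0.66 (-0.88 to -0.43, limma adjusted P = 0.0328), with no overlap. Its fall was under 1.5-fold with quantile normalisation (-0.57), normexp (-0.41), no background correction (-0.47) and in the deposited values (-0.47). The region is listed at chr15:58327703-58329443 with the suffix R on mm9, the build of the array's design, and carries 3 probes that all rose. On HFD + inulin none of the 6 arrays was well above background for 2 of these probes, so only a bound can be given, at least 4.43-fold higher for 1 and at least 1.91-fold for the other (limma adjusted P = 5.51e-04 and 3.41e-04). The probe with the 1.91-fold bound was not well above background on every HFD + inul PB array either. The third probe was measured on 2 of 6 HFD + inulin arrays and all 5 HFD + inul PB arrays and rose by 2.57 (1.70 to 3.44, limma adjusted P = 0.0285). The transcript listed as ENSMUST00000107229 fell by 1.24 (-1.56 to -0.92, limma adjusted P = 7.61e-04), from 11.81 or more on every HFD + inulin array to between 10.59 and 11 on HFD + inul PB.

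Among known genes whose levels did not overlap and were well above background on every array of a diet, 24 rose and 29 fell. Beyond the ribonucleases, the 12 largest rises held 2 kinases, 2 genes of neurons and 1 cytochrome. Plk3, a polo-like kinase of the stress response, lay between 10.15 and 11.30 with a median of 10.89 on HFD + inulin and was 11.33, 11.83, 11.74, 11.73 and 11.90 on HFD + inul PB, a difference of 0.97 (0.56 to 1.38, limma adjusted P = 0.152). The lowest ester array, at 11.33, only just cleared the highest inulin array, and LFD averaged 11.81, as high as the ester diet. Cyp4b1, a cytochrome that oxidises fatty acids and foreign compounds, rose from 12.32 ± 0.70 (SD, n = 6) to 13.49 ± 0.22 (SD, n = 5), by 1.17 (0.47 to 1.87). Rprm, a mediator of cell cycle arrest by p53, rose by 1.86 (0.63 to 3.08). Mast1, a serine/threonine kinase bound to microtubules, lay between 5.97 and 6.38 on the HFD + inul PB arrays, and was well above background on only 1 of 6 HFD + inulin arrays, at most 5.87. Its fitted difference was 1.17 (0.61 to 1.73), and with normexp background correction it was 0.41 and not called. With no background correction and in the deposited values the Mast1 difference was 0.51, again not called. Celf6, a regulator of splicing, rose by 0.80 (0.39 to 1.21), Zfr2 by 0.79 (0.33 to 1.25), and Gabrd, a subunit of the GABA-A receptor, by 0.92 (0.30 to 1.54). The adjusted P of each was above 0.05. Leaving out 1 array ended 2 of these calls by P: with replicate 1 or 4 of the ester diet left out Rprm was 1.66 or 1.79, and with replicate 5 of the inulin diet left out 1.69. Gabrd lay between 0.74 and 0.91 when replicate 3, 5 or 6 of the inulin diet, or 4 or 5 of the ester diet, was left out, and was 0.51 and not called with normexp. Rprm was also not called with slide and row as a block, at 1.86.

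Syn2, a synaptic vesicle protein, and Rarb, a retinoic acid receptor, were well above background on all 5 HFD + inul PB arrays and on none of the 6 HFD + inulin arrays. Syn2 was at least 2.08-fold higher (limma adjusted P = 0.0531) and Rarb at least 1.94-fold higher (limma adjusted P = 0.111). Syn2 averaged 5.81 on HFD, near its ester level of 6.01, and 4.28 on HFD + inulin, and Rarb averaged 5.54, 5.93 and 4.41 in the same order. With normexp the fitted differences were 0.53 for Syn2 and 0.49 for Rarb, under 1.5-fold.

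The 12 largest falls included receptors, genes of the cell cycle and genes of immune cells. Insrr, the insulin receptor-related receptor, a sensor of alkaline pH, lay between 8.63 and 9.01 with a median of 8.71 on HFD + inulin and was 7.65, 7.84, 7.52, 7.89 and 7.81 on HFD + inul PB. The arrays of each diet were tightly grouped, and Insrr fell by 1.01 (-1.42 to -0.60, limma adjusted P = 0.116), with 8.97 on HFD and 8.99 on LFD. Ccnb1, cyclin B1, fell on both of its probes that passed, by 1.20 (-1.75 to -0.66) on one, where HFD + inulin replicate 4 lay at 9.25 and the other inulin arrays between 7.13 and 7.74, and by 0.61 with overlapping ranges on another. Its brightest probe differed by -0.39. Parpbp, a partner of the DNA repair enzyme PARP1, fell by 0.82 (-1.20 to -0.45), and Smim5 by 0.81 (-1.28 to -0.34). With normexp these were -0.50 and -0.43, with neither called. With no background correction and in the deposited values they were -0.56 and -0.51, again with neither called.

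Cxcl9, a chemokine that interferon gamma induces and that attracts T cells, fell by 1.35 (-2.08 to -0.62) on the probe whose ranges do not overlap, and by 1.39 on a brighter probe whose ranges do. The fall differed between slides, at -1.18, -0.10 and -2.55. Cx3cr1, the fractalkine receptor of gut macrophages, fell by 0.92 (-1.53 to -0.31) over 5 inulin arrays, since the spot of HFD + inulin replicate 4 was marked an outlier, and its brighter probe differed by -0.44 (-0.91 to 0.03). The Cx3cr1 difference was -1.92 with that spot kept, -1.33 in the deposited values and -0.41 with normexp, and it was called in none of these or in a fit of the 2 diets only. Plek, a protein kinase C substrate of blood cells, fell by 0.81 (-1.31 to -0.30). Rbp7, a carrier of retinol, fell by 1.13 (-1.89 to -0.38) and Pcdh17, a protocadherin, by 1.13 (-1.86 to -0.40). Olfr612, an olfactory receptor gene, fell by 1.77 (-2.55 to -0.99, limma adjusted P = 0.183), from 6.33 ± 0.19 (SD, n = 6) to 4.56 ± 0.89 (SD, n = 5), with 2 of 5 ester arrays well above background. Leaving out 1 array ended the calls of Pcdh17 (-0.89 and -0.99 without inulin replicate 2 and 6, -1.09 and -1.10 without ester replicate 3 and 4), of Rbp7 (-1.11 to -1.04 without inulin replicate 2, 5 or 6 or ester replicate 3, 4 or 5) and of Cx3cr1 (-0.82 and -0.77 without inulin replicate 1 and 5, -0.59 without ester replicate 5). Apart from Mt1 and Mt2, no gene among these falls passed after adjustment.

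**Figure D2:**
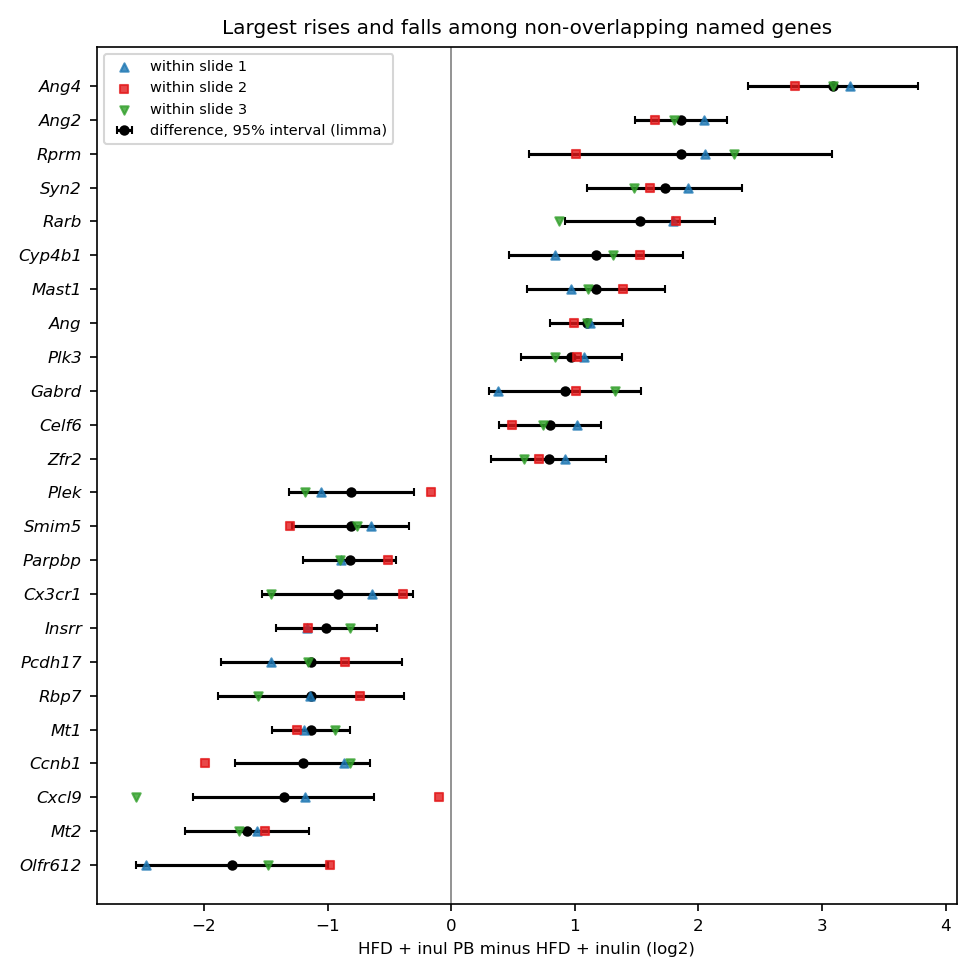
Difference in log2 signal, HFD + inul PB minus HFD + inulin, for the 12 largest rises and 12 largest falls (black points) with 95% intervals, and the same difference within each of the 3 slides (colored symbols). Syn2 and Rarb are drawn at fitted values, although their inulin levels are bounds. For Ang4 the slide values run from 2.78 to 3.23, and for Cxcl9 from -2.55 to -0.10.

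Genes that sense, carry and burn SCFA were then taken as lists, with 1 probe per gene, and their counts are to be read beside all 20887 genes, of which 3.71% were higher and 4.21% lower at an unadjusted P under 0.05 and whose median difference was -0.01. Whatever the P, 9784 of all genes were higher and 11103 lower, and counts of higher or lower members in this and later lists stand beside these. Of 13 receptors of SCFA and related metabolites, Ffar4 fell and none rose. Ffar4, a receptor of long chain fatty acids, lay between 9.42 and 10.03 with a median of 9.79 on HFD + inulin and was below all of these on HFD + inul PB, at most 9.36 (difference -0.62, -0.95 to -0.29, limma adjusted P = 0.378). It slipped under 1.5-fold without HFD + inulin replicate 3 (-0.57) or HFD + inul PB replicate 5 (-0.49), and under 6 other scalings or background settings. Ffar2, the receptor for acetate and propionate, was also lower on every ester array, 8.65 ± 0.31 (SD, n = 6) against 8.00 ± 0.25 (SD, n = 5), a difference of -0.65 (-1.12 to -0.17) that just missed the criteria at an unadjusted limma P of 0.0102. Ffar3, which binds propionate and butyrate, differed by 0.05 (-0.28 to 0.38) and Hcar2, the butyrate and niacin receptor, by -0.34 (-0.98 to 0.31).

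Of 10 transporters of SCFA none was called, and none had an unadjusted P under 0.05. Slc5a8, the sodium-coupled importer, differed by 0.11 (-0.42 to 0.64), and Slc16a1, the proton-coupled importer, by -0.22 (-0.50 to 0.05). Of 20 enzymes that activate or oxidise propionate and butyrate none was called, with a median of 0.01. Acsm3, an acyl-CoA synthetase that takes butyrate, differed by -0.47 (-0.87 to -0.07) and Hadh, of beta oxidation, by 0.21 (0.02 to 0.40), while Acads, the short chain acyl-CoA dehydrogenase, differed by 0.07 (-0.26 to 0.40) and Pcca, of propionyl-CoA carboxylase, by 0.13 (-0.21 to 0.48). None of 17 genes of the tricarboxylic acid cycle had an unadjusted P under 0.05, and their differences lay between -0.08 and 0.18.

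Of 24 genes of fatty acid oxidation and PPAR targets, 20 were higher and the median was 0.17, with 1 rise. Plin2, the coat protein of lipid droplets, lay between 12.92 and 13.53 on HFD + inulin and between 13.61 and 13.95 on HFD + inul PB, and rose by 0.61 (0.30 to 0.91, limma adjusted P = 0.339), just over 1.5-fold. It was just under it, at 0.55 to 0.57, when inulin replicate 2 or 3 or ester replicate 4 or 5 was left out. The Plin2 difference was also just under 1.5-fold with normexp or no background correction (0.57) and in the deposited values (0.58). Pdk4, which diverts pyruvate from oxidation, was 0.99 higher (0.23 to 1.76), Fabp2, the intestinal fatty acid binding protein, 0.26 higher (0.05 to 0.47) with no overlap, and Cd36, a fatty acid importer, 1.42 lower (-2.75 to -0.10). None of 6 genes of ketone body metabolism was called. Of 22 genes of cholesterol synthesis none was called, with a median of 0.08.

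Of 30 genes of xenobiotic metabolism, Cyp4b1 and Ahrr rose and none fell. Ahrr, the repressor of the aryl hydrocarbon receptor and one of its targets, rose by 0.95 (0.41 to 1.48, limma adjusted P = 0.447) with overlapping ranges. Cyp1a1, the classic target of that receptor, lay between 3.05 and 5.19 with a median of 4.86 on HFD + inulin and was 6.65, 8.57, 5.85, 7.63 and 5.30 on HFD + inul PB. All ester arrays were higher than all inulin arrays, but the probe was well above background on 1 of 6 and 4 of 5 arrays. The difference of 2.24 (0.54 to 3.93) missed the criteria at an unadjusted limma P of 0.0123, and the arrays spread widely on other diets too, from 3.18 to 7.63 on HFD. Other targets in a list of 8, drawn up after the values were seen, did not pass: Tiparp differed by 0.25 (-0.02 to 0.52), Nqo1 by 0.11 (-0.22 to 0.44) and Cyp1b1 by 0.09 (-1.55 to 1.73). Ahr itself, the receptor, was 0.39 lower (-0.66 to -0.11).

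Apart from Ang4, genes of goblet cells, which secrete the mucus layer, leaned lower. Of 21 measured, Ang4 rose, none fell by the 1.5-fold criteria, 9 were lower at an unadjusted P under 0.05, and the median was -0.28. Zg16, a mucus lectin that binds bacteria, lay between 17.19 and 17.77 on HFD + inulin and between 16.77 and 17.05 on HFD + inul PB, with no overlap (difference -0.53, -0.81 to -0.26, limma adjusted P = 0.343). Atoh1, the transcription factor of secretory cells, differed by -0.50 (-0.76 to -0.23), Creb3l4, a transcription factor of secretory cells, by -0.53 (-0.82 to -0.23), Ern2, a goblet cell sensor of unfolded protein, by -0.47 (-0.75 to -0.19), and Agr2, a disulfide isomerase needed for mucin, by -0.52 (-0.97 to -0.07). Muc2, the main secreted mucin, differed by -0.35 (-0.83 to 0.12), while Clca1 and Retnlb, also products of goblet cells, differed by 0.38 (-0.06 to 0.82) and 0.53 (-0.13 to 1.18). The number lower was between 7 and 10 when any array of these diets was left out. The mean level of the list, Ang4 included, overlapped between the fiber diets. It lay between 12.57 and 12.85 on HFD + inulin and between 12.50 and 12.72 on HFD + inul PB. Without added fiber it lay between 13.02 and 13.36 on HFD and between 12.85 and 13.36 on LFD.

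Of 21 antimicrobial and epithelial defence genes only Ang4 was called. Reg3b and Reg3g, antibacterial lectins, differed by -2.25 (-7.12 to 2.62) and -1.65 (-5.26 to 1.97), intervals too wide for a direction. Of 9 transmembrane mucins and genes of the brush border none was called, and 3 were higher at an unadjusted P under 0.05: Muc4 by 0.64, Ush1c by 0.26 and Cdhr2 by 0.22.

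All 22 genes of proliferation were lower on HFD + inul PB, although none passed the 1.5-fold criteria. The median was -0.36, and 13 had an unadjusted P under 0.05. Ccnb2, cyclin B2, differed by -0.47 (-0.78 to -0.15), Top2a, which untangles DNA at mitosis, by -0.46 (-0.81 to -0.12), and Mki67, the usual marker of cycling cells, by -0.35 (-0.62 to -0.09), 13.22 ± 0.28 (SD, n = 6) against 12.87 ± 0.18 (SD, n = 5). The mean level of the list lay between 10.23 and 11.09 on the HFD + inulin arrays and between 10.21 and 10.53 on the HFD + inul PB arrays, so the lowest inulin arrays, replicates 4 and 2, lay in the ester range. On HFD the lowest array was at 10.63 and on LFD at 10.64, above all ester arrays. The number with a P under 0.05 fell to 3 without HFD + inul PB replicate 4, to 4, 6 and 7 without HFD + inulin replicate 1, 3 and 6, and reached 19 without HFD + inulin replicate 4. It was 4 when arrays were scaled to their 75th percentile and 7 in a fit of the 2 diets only. The median stayed between -0.47 and -0.29 when any of these arrays was left out.

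Of 11 stem cell genes none was called. Rnf43, a brake on Wnt signalling, was 0.30 higher (0.11 to 0.48) with no overlap and Ascl2, the transcription factor of the stem cell state, 0.48 higher (0.13 to 0.83), whereas Lgr5, the receptor that marks these cells, differed by -0.12 (-0.35 to 0.10). Of 15 genes of absorptive colonocytes and 20 of enteroendocrine cells none was called. Gcg, the source of GLP-1, differed by -0.51 (-1.18 to 0.17) and Pyy by -0.20 (-0.82 to 0.42). Among 11 tuft cell genes, Trpm5, the cation channel of taste and tuft cells, rose by 0.69 (0.23 to 1.14), by 0.03, 0.96 and 1.15 within the slides. That call ended when inulin replicate 4 (0.64) or 5 (0.62) or ester replicate 3 (0.65) or 5 (0.48) was left out, with slide and row as a block (0.64), in a fit of the 2 diets only (0.69), with normexp (0.35) and with no background correction or in the deposited values (0.42). Il25, the cytokine of tuft cells, fell by 0.97 but had no array above background on either diet. Its call was lost with normexp (-0.26), with no background correction or in the deposited values (-0.33), and without several single arrays.

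**Figure D3:**
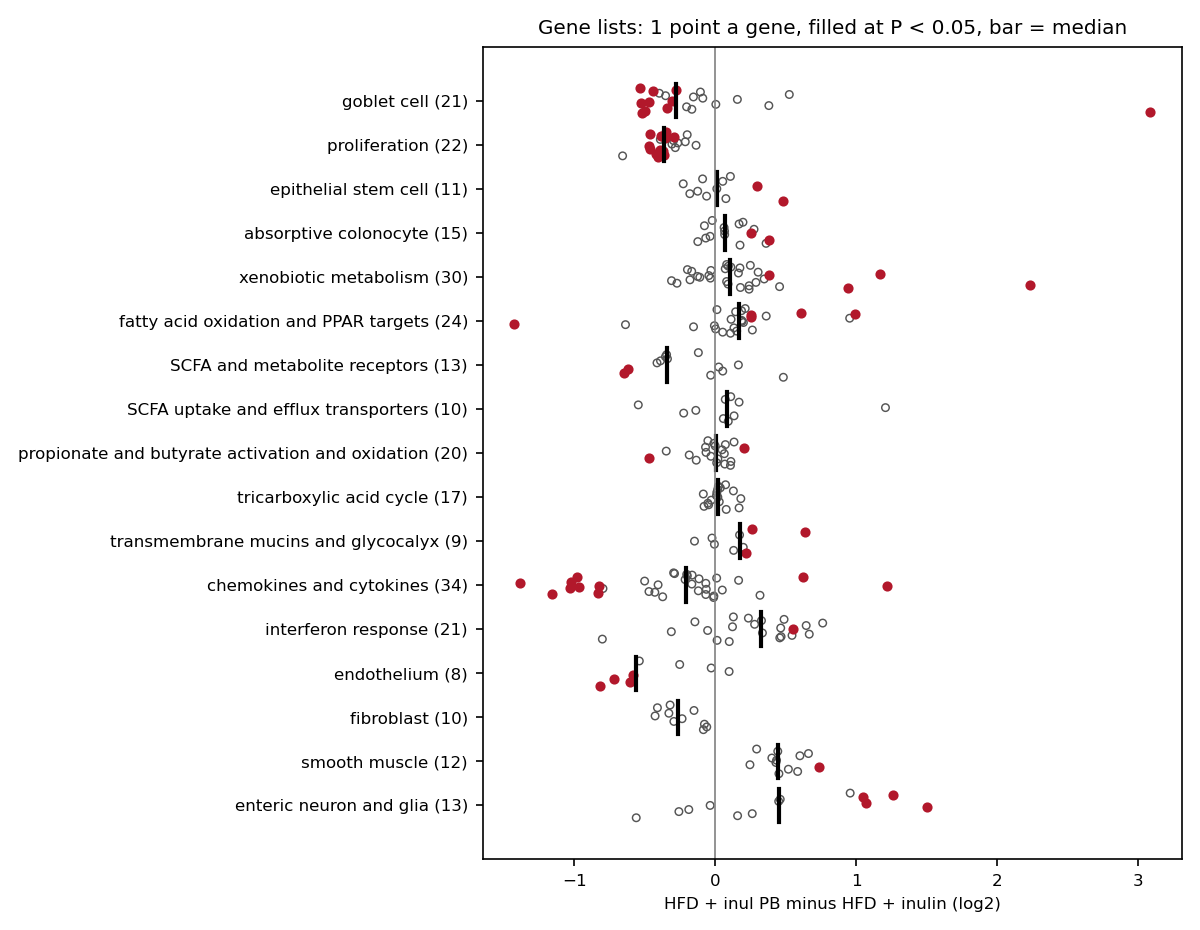
Difference in log2 signal, HFD + inul PB minus HFD + inulin, for the measured genes of 17 lists (points, filled at an unadjusted P under 0.05) with the median of each list (bar). The proliferation list lies wholly below 0, the goblet cell list has its median at -0.28 with Ang4 at 3.09, and the tricarboxylic acid cycle list spans -0.08 to 0.18.

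Of 34 chemokines and cytokines, 28 were lower, 4 fell and 1 rose. Cxcl14, a chemokine of epithelium and stroma, rose by 1.22 (0.68 to 1.75, limma adjusted P = 0.183), from 11.58 ± 0.66 (SD, n = 6) to 12.80 ± 0.40 (SD, n = 5), where HFD + inulin replicate 5, at 12.86, lay within the ester range. Besides Cxcl9, Cxcl12, the stromal chemokine, fell by 0.97 (-1.55 to -0.39), Il1b by 0.98, and Cxcl13, which attracts B cells, by 0.83. Another 4 were lower at an unadjusted P under 0.05: Ccl3 by 1.16, Cxcl10 by 1.03, Ifng by 1.03 and Ccl4 by 0.83. The number that fell depended on single arrays: it was 1 without the fifth HFD + inul PB array, 7 without the second, and 2 without the first or the fourth or without HFD + inulin replicate 5 or 6. It was 2 under quantile normalisation and 0 in a fit of the 2 diets only. Interferon response genes leaned the other way, with 17 of 21 higher, a median of 0.33 and none called. Only 1 of them was higher at an unadjusted P under 0.05. The mean level of the list lay between 11.52 and 12.85 on the HFD + inulin arrays. On the HFD + inul PB arrays it lay between 11.98 and 12.72, within the inulin range. The median was 0.19 without HFD + inulin replicate 3, 0.21 without HFD + inul PB replicate 4 and 0.19 with slide and row as a block. Of them Irf7, a regulator of interferon, was 0.55 higher (0.03 to 1.07).

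Marker lists of other cell types stand beside these differences. None of 13 genes of macrophages and dendritic cells was called, all 13 were lower, and their mean level lay between 8.82 and 10.09 on HFD + inulin and between 8.82 and 9.16 on HFD + inul PB. Of 14 T and NK cell genes Cd8b1, a chain of the CD8 receptor, fell by 0.79 (-1.22 to -0.37) at a signal near background, and 12 were lower. The Cd8b1 call was lost with normexp (-0.22), with no background correction or in the deposited values (-0.29), and with loess and fit over the 11 arrays (-0.75). Of 8 endothelial genes Cdh5, the cadherin of vessel junctions, fell by 0.82 (-1.38 to -0.26) and Emcn by 0.72 (-1.20 to -0.23), and the median was -0.56. HFD + inulin replicate 5 was the highest of the 11 arrays for the macrophage list (10.09), the endothelial list (10.54), the B and plasma cell list (7.80) and the fibroblast list (12.75). Without it neither endothelial gene was called, and neither was when inulin replicate 2 or ester replicate 2 or 5 was left out, where Emcn lay between -0.71 and -0.55 and Cdh5 between -0.80 and -0.75. Emcn was also lost without HFD + inul PB replicate 1 (-0.72) and Cdh5 without HFD + inulin replicate 4 (-0.75). Neither was called in a fit of the 2 diets only, Cdh5 was not with slide and row as a block (-0.83), and Emcn was not with scaling to the 75th percentile (-0.67), normexp (-0.42), no background correction (-0.49) or in the deposited values (-0.49). Without HFD + inulin replicate 5 Emcn was -0.54 and Cdh5 -0.63, and the list medians were -0.32 for endothelium, -0.06 for macrophages and 0.01 for fibroblasts, against -0.25 for macrophages and -0.26 for fibroblasts with it. Without HFD + inulin replicate 4 these were -0.38 and -0.43, and the fibroblast median was -0.16 without HFD + inul PB replicate 5. The part of these cell types in the chemokine falls was not tested.

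Genes of the muscle layer and its nerves were on average higher on HFD + inul PB. All 12 smooth muscle genes were higher, with a median of 0.45 and none called, and Des, the muscle intermediate filament, was 0.74 higher (0.02 to 1.45). Of 13 genes of enteric neurons and glia none was called and 4 were higher at an unadjusted P under 0.05, among them Uchl1 by 1.26, Ret by 1.07 and Stmn2 by 1.05. The number was 2 when inulin replicate 4 or ester replicate 1, 2 or 4 was left out. HFD + inulin replicate 4 was the lowest of the 11 arrays for both lists, at 12.10 for smooth muscle and 6.02 for neurons and glia, and without it the medians were 0.22 and 0.16. The neuron and glia median was 0.25 without HFD + inulin replicate 3 and 0.19 with normexp. The share of muscle in each cecum piece was not measured, and the part it plays in the rises of Syn2 and Gabrd, genes of neurons, was not tested.

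The mean level of adipocyte genes lay between 7.71 and 11.84 on HFD + inulin and between 7.54 and 10.26 on HFD + inul PB, and with a median of -1.03 none had an unadjusted P under 0.05. The adipocyte median was -0.57 without HFD + inulin replicate 2, -0.56 without HFD + inulin replicate 6 and -0.60 with normexp. Genes of Paneth cells and ileal enterocytes averaged 9.25 on HFD + inulin replicate 1 and 8.91 on HFD + inul PB replicate 5, against at most 7.49 on the other 9 arrays, and none of 12 was called. None of 13 B and plasma cell genes and none of 12 mast cell and eosinophil genes was called.

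**Figure D4:**
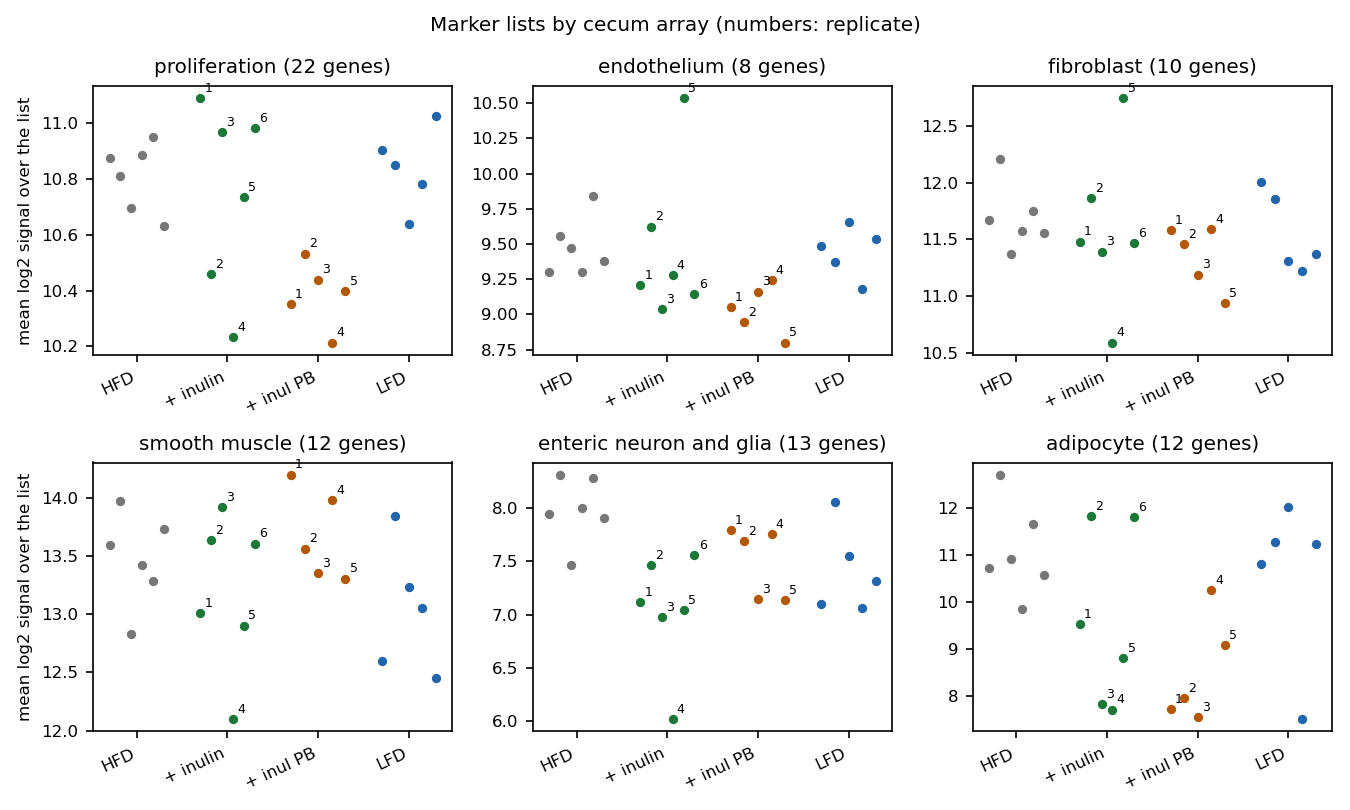
Mean normalised log2 signal of 6 marker lists (panels) on each cecum array of the 4 diets (points, with replicate numbers for HFD + inulin and HFD + inul PB). HFD + inulin replicate 5 is the highest array for the endothelial and fibroblast lists, and HFD + inulin replicate 4 the lowest for the smooth muscle list and the neuron and glia list.

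Most of the genes that the study had measured further were picked from these arrays for their response to fiber, so their choice is not independent of them, whereas Enho was chosen for the liver and Ube2d2a served as a PCR reference. None of the 17 measured was called between the fiber diets. Muc16, which the study also followed up, has no probe matched by name and is not covered. Tex19.1, a germ line gene, lay between 8.29 and 10.55 on HFD + inulin and between 10.57 and 11.35 on HFD + inul PB, against a mean of 5.83 on HFD, a difference of 1.36 (0.17 to 2.54, limma adjusted P = 0.735) between the fiber diets. Cnr1, the cannabinoid receptor, was 1.71 higher (0.46 to 2.97, limma adjusted P = 0.648) with 3 of 6 inulin arrays well above background. Cldn23 differed by 0.37 (limma adjusted P = 0.785), Cldn4 by 0.55 (-0.02 to 1.12) and Cldn5 by -0.13 (-0.89 to 0.62), all claudins of the tight junction. Tff3, a trefoil factor that heals mucosa, differed by -0.28 (limma adjusted P = 0.783). Saa1 and Saa2, acute phase proteins of the epithelium, differed by -0.28 (-1.08 to 0.53) and -0.33 (-1.09 to 0.43), Slc26a3, a chloride and bicarbonate exchanger, by 0.17 (-0.37 to 0.71), Enho by 0.21 (-0.39 to 0.80) and Cfd, an adipocyte protease, by -2.49 (-7.32 to 2.34). Ube2d2a differed by 0.00 (-0.14 to 0.14).

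Of the remaining lists, none of 29 genes of electrolyte and water transport was called, with Best2, a bicarbonate channel of goblet cells, at -0.82 (-1.47 to -0.17) and Scnn1b, a subunit of the epithelial sodium channel, at -1.11 (-2.01 to -0.20). None was called among 19 tight junction genes, 18 genes of the unfolded protein response, 18 of the circadian clock, 10 of antigen presentation by MHC class II or 10 of the bile acid response.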

How the data were processed

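Cecum RNA was labelled with Cy3 and hybridised to one-colour Agilent mouse arrays, 62976 spots each, 59305 of them not controls. The authors deposited per array the output of Agilent Feature Extraction 10.7.3.1, which gives each spot's intensity on a linear scale: a processed signal with background subtracted and spatial trend removed, and the raw median signals. They also deposited a table of normalised values on a log2 scale, used here as an alternative. No columns of samples or of comparisons were left unused. The limma version of the authors is not given in the sources used here.

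From the processed signal, control and outlier spots were left out, log2 was taken, the 22 cecum arrays were normalised by cyclic loess (span 0.7) and spots of a probe averaged, which left 55681 probes. limma 3.58.1 (R 4.3.3) fitted the 4 diets in one model with empirical Bayes moderation, so all diets share the spread, and the contrast was HFD + inul PB minus HFD + inulin. Intervals are 95% from that fit. Calls used a fold over 1.5 and an unadjusted P under 0.01, the study's criteria, or an adjusted P under 0.05 (Benjamini-Hochberg over all probes). Exact permutation tests, two-sided, used all 462 divisions of 6 and 5 arrays. The code was tested on simulated data. No array was identical to another (correlations 0.951 to 0.989). The number of arrays, not a read depth, limits the precision.

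Symbols came from matching accessions to RefSeq genes of GRCm38.p6, which 27509 probes did, 16194 probes being regions of long non-coding RNA. Lists used 1 probe a gene, that of highest mean signal. Named were the 12 largest rises and 12 largest falls among known genes that passed, were well above background on every array of a diet and did not overlap, every known gene past adjustment, up to 3 genes of lowest P in each list and the genes followed up by the study. Other list members named were chosen after their values were seen, and some genes of the rule are not reported here. A probe at background on all arrays of a diet has a bound only: the brighter mean against the mean of, per array, the higher of the lowest signal well above background and the probe's own. The comparison, the lists and this rule were chosen with earlier results of these data known.

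Replicate numbers do not pair the arrays: deviations of same-numbered arrays correlated between -0.32 and 0.19 (5 pairs). Alternatives were other scalings (75th percentile, quantile, loess over pairs of arrays or over the 11 arrays), normexp with an offset of 50 on the median signals, no background correction, outliers kept, the deposited values, a filter on dim probes, a fit of the 2 diets, slide, slide row and replicate number as blocks, a trended and robust eBayes, stricter thresholds, and each array left out. Normexp on the median signals and within-slide differences were added after the data were seen, since mean signals are not in the files.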

Additional observations from a re-analysis of the deposited data

Results flagged for a closer look

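Of 290 sets of arrays of 1 gene on 1 diet, 20 held an array far from the others (the gap to the nearest array against the whole range, Dixon's 95% value), and chance gives about 1 in 20 such sets. On HFD + inulin replicate 5, Cxcl14 lay at 12.86 (others 10.95 to 11.49), Sc5d lay at 12.00 (others 12.38 to 12.47), Slc16a4 lay at 4.05 (others 2.83 to 3.24), Fcrla lay at 6.88 (others 4.88 to 5.62), Jchain lay at 15.77 (others 13.64 to 14.27), Pdgfra lay at 11.67 (others 9.77 to 10.35) and Emb lay at 8.76 (others 7.67 to 8.02). On HFD + inul PB replicate 5, Ffar4 lay at 8.64 (others 9.18 to 9.36), Cx3cr1 lay at 4.61 (others 6.01 to 6.37), Slc16a1 lay at 5.88 (others higher, up to 6.23) and Cubn lay at 11.30 (others 8.76 to 9.35). On HFD + inulin replicate 6, Cd8b1 lay at 6.29 (others 5.28 to 5.51), Il25 lay at 3.05 (others 4.20 to 4.79), Cyp1a1 lay at 3.05 (others 4.43 to 5.19) and Pdia3 lay at 12.80 (others 12.26 to 12.36). On HFD + inul PB replicate 3, Smim5 lay at 5.46 (others 6.09 to 6.19) and Il25 lay at 4.32 (others 2.97 to 3.07). On HFD + inul PB replicate 4, Fabp4 lay at 12.81 (others 10.64 to 11.04). On HFD + inulin replicate 1, Pdk4 lay at 10.68 (others 9.06 to 9.66). On HFD + inulin replicate 4, Ccnb1 lay at 9.25 (others 7.13 to 7.74).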

How the results depend on the processing

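The 447 probes past the criteria became 114 with normexp background correction, 163 with no background correction, 159 in the authors' deposited values and 270 when dim probes were left out, and 193 passed a fold over 2. The share that was higher, 58.2%, was 69.3% with normexp and 70.2% without HFD + inul PB replicate 5, but 50.7% when dim probes were left out and 48.9% with slide and row as a block, where 254 were higher and 265 lower. The 12 probes past adjustment became 7 with loess and fit over the 11 arrays only, 20 with the filter on dim probes, and 35 without HFD + inulin replicate 4. Leaving out each array in turn gave 378 to 613 calls and 11 to 35 past adjustment. With the replicate block there were 559 and 11, and with slide as a block 500 and 13. Of the 25 genes named for the largest differences or past adjustment, 14 kept direction and call in all settings, among them Ang4, Ang2, Ang, Mt1, Mt2, Insrr, Plk3 and Cyp4b1. Of their 899 values, 855 kept both, 44 lost the call and 0 reversed, and the cause of the losses was not tested. Fhit (-0.41), Syn2 (0.53), Rarb (0.49), Parpbp (-0.50), Mast1 (0.41), Smim5 (-0.43), Gabrd (0.51) and Cx3cr1 (-0.41) were no longer called with normexp, and Pcdh17, Rprm, Rbp7, Gabrd and Cx3cr1 were lost without certain single arrays. Fhit, Parpbp, Mast1, Smim5 and Cx3cr1 were also lost with no background correction and in the deposited values. Quantile normalisation ended the call of Fhit, and slide and row as a block that of Rprm. Cx3cr1 was lost too with outlier spots kept and in fits of the 2 diets only. Signal over background limits what the dim probes can show.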
